A study of Mus musculus with 32 samples.

Results

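The genes described here are 33 antiviral genes that cells switch on in answer to type I interferon. They were taken as a list of symbols, each was matched to the array through the RefSeq identifier of its probes, and the probe with the highest mean signal over all arrays stood for the gene. A probe was matched for 31 of the 33, among 22911 RefSeq symbols and 45616 names on the array in all. Mx1 and Mx2, which encode interferon-induced GTPases, had no matched probe and were not analysed here.

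Type I interferons (interferon beta and the interferon alphas) are secreted when sensors detect viral RNA or misplaced DNA. They bind the receptor Ifnar1-Ifnar2, whose kinases Jak1 and Tyk2 activate a complex that holds Stat2 and Irf9, and this complex binds the interferon-stimulated response element in the promoters of its target genes. The products degrade or bind foreign RNA, block translation, trap virus particles, modify proteins with Isg15 and amplify the response through Irf7. In tumors the same genes are read as a mark of interferon signalling in tumor, immune and stromal cells.

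The arrays came from mice that had received MCG 101 tumor cells, a transplantable mouse sarcoma line. The gene for EP2, a receptor for prostaglandin E2, is Ptger2. Hosts were EP2+/+ or EP2-/-, called wild type and knockout below, and all of them received the same tumor cells. From each genotype 8 arrays of tumor and 8 of the tissue labelled tumor stroma were made, in each case 4 labelled female and 4 labelled male, which gave 4 groups of 8. The age and strain of the hosts, the way EP2 was deleted and the time between implantation and dissection were not given in the sources used here, and arrays are called below by their number in the titles. The titles number the samples but do not say that each came from a separate animal, so p-values measure only the spread between these samples. In bulk tissue, fewer cells of a type and less RNA per cell cannot be told apart.

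Levels are log2 signals relative to the 75th percentile of the array, so that 0 is the signal at that percentile, and differences are on the same log2 scale. The 75th percentile ran from 584 to 1727 signal units and 49.99% to 76.3% of spots per array were well above background. Xist and Ddx3y went against the sex label on 5 arrays, namely wild-type stroma 9, knockout stroma 95 and 99 and knockout tumor 95 and 99. Wild-type stroma 65 and 82 lay among the tumor arrays on the first principal component, and their skeletal muscle markers were the lowest of the stroma arrays. Ptger2 was not lower in knockout hosts (-3.74 ± 0.49 against -4.60 ± 0.97 in stroma, -4.51 ± 0.76 against -5.54 ± 0.94 in tumor, SD, n = 8 each), and since the sources used here do not say whether its probe lies in the deleted part of the gene, it does not check the genotype labels. Wild-type tumor 5 held the most outlier spots (483) and the highest share above background (76.3%), and its highest correlation with another array was 0.896, the lowest such value of the 32. Fits without these arrays were run, and for some results the values with and without them are given below.

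The promoters of the members are shown as a description. Members were listed as interferon-stimulated genes, so a high share of the response element among them is not an independent result. The motif searched was GAAA, any 2 bases, GAAA on either strand, a core of the interferon-stimulated response element, in RefSeq windows (GRCm38.p6) from 250 bases before to 50 bases after a start. A window was held for 25 members, and 12 of them (48%) contained the motif at least once, against 3.99% of 27025 genes with a window. It was also found in 11 of 22 other type I stimulated genes with a window (50%), 4 of 9 interferon gamma response genes (44.4%) and 0 of 4 receptor, JAK and STAT genes. Stretches around the motif are printed for 6 members, those holding it with the smallest p between knockout and wild-type tumor, 5′ to 3′ on the gene's strand with the motif in capitals (overlapping copies run together). Their positions were Ifih1 chr2:62646206-62646233 (minus strand), Oas1a chr5:120907496-120907585 (minus strand), Ddx58 chr4:40239796-40239863 (minus strand), Eif2ak2 chr17:78882543-78882594 (minus strand), Stat2 chr10:128270248-128270325 (plus strand), Bst2 chr8:71537547-71537642 (minus strand). No stretch holds more than 30 bases that lie after a start, and that of Ifih1 runs from base 23 to base 50 after it.
Ifih1: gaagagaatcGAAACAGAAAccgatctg
Oas1a: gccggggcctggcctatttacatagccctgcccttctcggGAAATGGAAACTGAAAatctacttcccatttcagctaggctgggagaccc
Ddx58: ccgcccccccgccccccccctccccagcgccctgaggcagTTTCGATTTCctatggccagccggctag
Eif2ak2: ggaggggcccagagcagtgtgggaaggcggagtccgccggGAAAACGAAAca
Stat2: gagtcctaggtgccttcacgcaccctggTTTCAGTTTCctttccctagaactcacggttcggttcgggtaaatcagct
Bst2: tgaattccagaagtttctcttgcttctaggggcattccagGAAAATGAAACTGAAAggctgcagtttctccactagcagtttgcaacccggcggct
Ifih1 encodes the double-stranded RNA sensor MDA5, Oas1a an oligoadenylate synthetase, Ddx58 the RNA sensor RIG-I, Eif2ak2 the kinase PKR, Stat2 the transcription factor named above and Bst2 the membrane protein tetherin. With the start as base 1 and the base before it as -1, the motif began at base 33 in Ifih1, 19 in Eif2ak2, 3 in Ddx58 and -222 in Stat2, and in the last pair it lay on the opposite strand. Oas1a and Bst2 held 2 overlapping copies each, all of them before the start. No copy was found in the windows of Irf7, Irf9, Ifit2 or Isg20, which says only that these letters are not in those windows. A match of letters does not show that a factor binds there.

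The members moved together from array to array, and arrays of the same group lay far apart. The deviation of each member from its own median over the 32 arrays was taken, and the median over the 31 members ran from -1.86 on wild-type stroma 9 to 1.60 on knockout stroma 15. In stroma, knockout 15 held the highest value of the 16 arrays for 17 members and wild-type 68 (median deviation 1.32) for 7, while wild-type 9 held the lowest value for 23 and wild-type 1 (-1.37) for 2. In tumor, knockout 51 (1.48) held the highest value for 23 members and knockout 81 (0.91) for 5, while wild-type 5 (-0.88) held the lowest for 10 and knockout 59B (-1.25) for 8. The wild-type stroma arrays fell into 4 low values (-1.86, -1.37, -0.64 and -0.54) and 4 high values (0.58, 0.82, 1.02 and 1.32), and the knockout stroma arrays ran from -0.27 to 1.60.

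**Figure D1:**
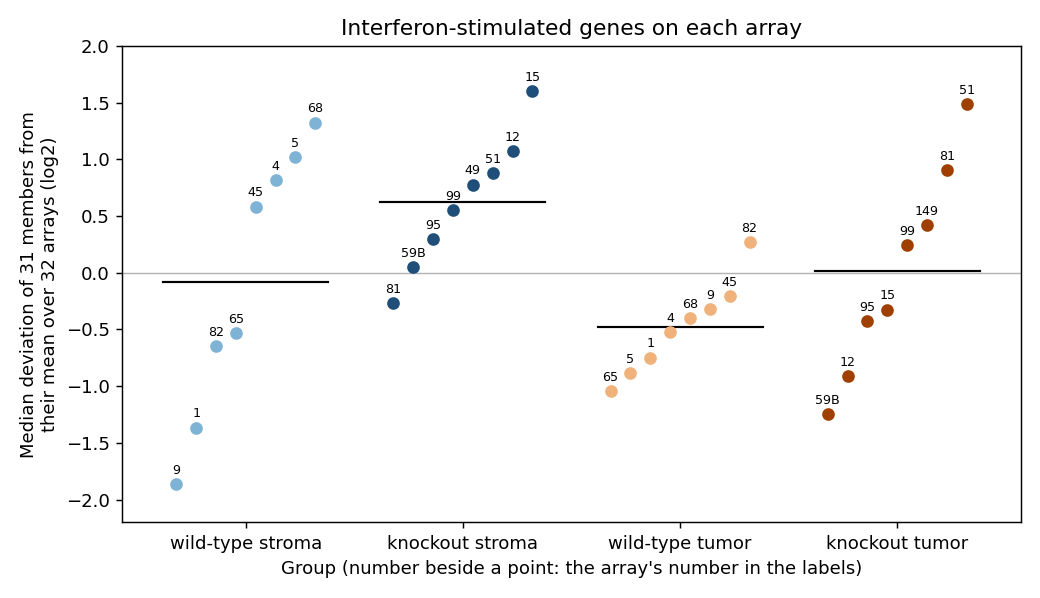
Each point is an array, placed at the median deviation (log2) of the 31 members from their own medians over 32 arrays, with the array's number beside it. The axis title says mean, but the deviations are from the medians. Horizontal bars are group means, and points are sorted by value within a group. Wild-type stroma 9 (-1.86) and knockout stroma 15 (1.60) are the extremes, and the genotypes overlap in both tissues.

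Arrays with the same number in the 2 tissues did not hold the same place. Number 51 was high in knockout tumor (1.48) and above 0 in knockout stroma (0.88). Number 81 was high in knockout tumor (0.91) and the lowest of the knockout stroma arrays (-0.27). Number 15 was the highest in knockout stroma (1.60) and at -0.33 in knockout tumor. The spread between arrays also differed by group. In stroma the SD was larger among wild-type than among knockout arrays for 30 of 31 members, with a median SD of 1.21 against 0.64, and the same held for 82.3% of all genes tested. In tumor the SD was larger among knockout arrays for 28 of 31 members (median SD 1.16 against 0.62), against 35.0% of all genes tested.

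**Figure D2:**
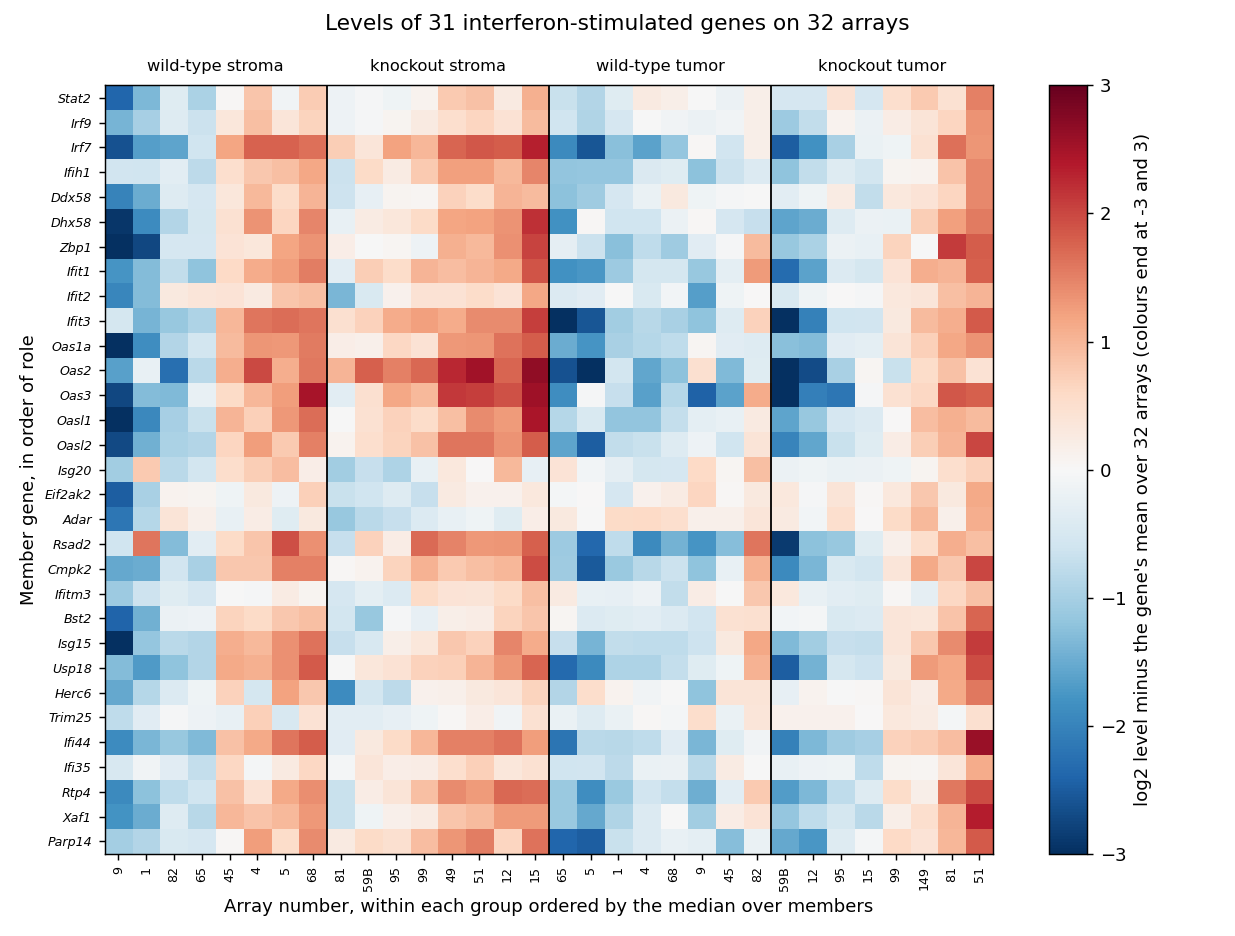
Each row is a member in order of role and each column an array, ordered within its group by the median over members; colour is the log2 level minus the gene's mean over 32 arrays, with colours ending at -3 and 3. Most rows are low on wild-type stroma 9 and high on knockout stroma 15 and knockout tumor 51, the lowest array and the highest arrays of the 2 tissues.

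The comparison of knockout with wild-type tumor asks how the implanted tumor differed between hosts with and without EP2. Of the 31 members 30 were higher in knockout hosts, against 44.0% of the 23730 genes tested, and their median difference was 0.64, a fold of about 1.56 as for Ifit2, against -0.03 over all genes. The differences ran from -0.02 for Isg20 to 1.002 for Parp14, whose other probe gave 0.34, and 23 of 31 lay above the 95th percentile of the differences of all genes. In limma, with p-values adjusted by Benjamini and Hochberg's method, none passed the limit of 0.05 (smallest adjusted p of a member 0.980), as was the case for 0% of all genes. At an unadjusted p under 0.05 there were 2 members, both higher, against 1.15% of all genes called higher at that limit.

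The RNA-binding effector Ifit2, whose product binds viral RNA, had the smallest p. Its level ran from -2.79 through a median of -1.36 to -1.12 in wild-type tumor and from -1.58 through -0.96 to -0.11 in knockout tumor. Wild-type tumor 9 was the low value and knockout tumor 51 and 81 were the high values, 7 of 8 knockout arrays lay above the wild-type median, and the groups overlapped. The difference was 0.64 ± 0.25 (SE, adjusted p = 0.980, limma), and 0.40 without knockout tumor 51 and 81.

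The RNA sensors gave the next values. Ifih1 ran from -1.56 through -1.22 to -0.70 in wild-type tumor and from -1.54 through -0.48 to 1.12 in knockout tumor. The knockout values started where the wild-type values did and reached much higher, with 7 of 8 above the wild-type median. The difference was 0.77 ± 0.34 (SE, adjusted p = 0.980, limma) and was 0.37 without knockout tumor 51 and 81. Ddx58 ran from -0.05 through 1.02 to 1.46 in wild-type and from 0.43 through 1.46 to 2.62 in knockout tumor, a difference of 0.60 ± 0.30 (SE). Its groups overlapped and its highest value was again on knockout tumor 51. All 4 sensors were higher (median 0.64), among them Dhx58, which regulates the other RNA sensors, and Zbp1, which senses Z-form nucleic acid.

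Oas1a, an oligoadenylate synthetase that activates RNase L, ran from 1.39 through 2.34 to 3.21 in wild-type and from 1.84 through 3.19 to 4.49 in knockout tumor. The groups overlapped, with 6 of 8 knockout arrays above the wild-type median, and the difference was 0.86 ± 0.41 (SE). Oas1a has close neighbours of almost the same sequence, so its probe may read more than 1 of them. Parp14, an ADP-ribosyltransferase, differed by 1.002 ± 0.54, Eif2ak2 by 0.30 ± 0.18, Herc6, the mouse ligase for Isg15, by 0.50 ± 0.29 and Ifi35 by 0.41 ± 0.24 (SE; adjusted p = 0.980 for each, limma). Isg20, an RNA exonuclease, was the exception to the direction at -0.02 ± 0.21 (SE, adjusted p = 0.998, limma), and its sign turned under several alternatives.

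By role, all 3 signalling genes (Stat2, Irf9 and Irf7; median 0.46), 10 of 11 RNA-binding and RNA-degrading effectors (0.64), 4 of 4 membrane and nucleotide effectors (0.59), 4 of 4 genes of the Isg15 system (0.53) and 5 of 5 other induced genes (0.79) were higher. For Stat2 and Xaf1 the probes disagreed in sign. The brighter Stat2 probe gave 0.46 and the other -0.62, and Xaf1 gave 0.64 and -0.30.

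The size of the members' shift depended on the arrays used. Knockout tumor 51 and 81 were the highest tumor arrays for the members, so leaving them out was bound to lower the difference. Without knockout tumor 51 and 81 the median difference was 0.18, with 28 of 30 tested members higher and none at an unadjusted p under 0.05. The share of all genes that were higher in that fit is not given here. Without knockout tumor 51 alone the median was 0.31. Without wild-type tumor 5 it was 0.53, with 31 of 31 higher. Slide as a fixed block gave 0.28 and array weights gave 0.30. Within the 3 slides that held both genotypes the medians were 1.27, 0.14 and -0.04, with 31, 23 and 15 of 31 members higher. The first of these slides set knockout tumor 81 against wild-type tumor 45.

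In stroma the members were also higher in knockout hosts in most cases, 28 of 31 against 55.3% of the 24772 genes tested. The median difference was 0.75 against 0.09 over all genes, the range was -0.32 for Isg20 to 1.80 for Oas2, and 8 members exceeded 1. No member passed in limma at an adjusted p under 0.05 (smallest 0.125, Oas2), and nor did any other gene (0%). At an unadjusted p under 0.05 there were 6 members, all higher, against 12.5% of all genes called higher, and 17 of 31 members lay above the 75th percentile of the differences of all genes.

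Oas2, a large oligoadenylate synthetase, had the highest difference. It ran from -0.91 through a median of 1.78 to 3.33 in wild-type stroma and from 2.38 through 3.12 to 4.001 in knockout stroma. All 8 knockout arrays lay above the wild-type median, the knockout values were close together, and the upper wild-type arrays overlapped them. The difference was 1.80 ± 0.50 (SE, adjusted p = 0.125, limma), a fold of 3.48, and it was 1.37 without wild-type stroma 65 and 82.

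Oasl2, which encodes an oligoadenylate synthetase-like protein, ran from -1.69 through 0.90 to 2.54 in wild-type and from 1.13 through 2.13 to 2.83 in knockout stroma. Wild-type stroma 9 was the lowest and the groups overlapped. The difference was 1.29 ± 0.52 (SE, adjusted p = 0.142, limma). Parp14 ran from 0.56 through 1.39 to 3.02 in wild-type and from 1.86 through 2.38 to 3.23 in knockout stroma, a difference of 0.87 ± 0.38 (SE, adjusted p = 0.157, limma). All 8 knockout arrays lay above the wild-type median for both genes. Oas3 ran from -6.64 through -3.74 to -1.44 in wild-type and from -4.23 through -2.37 to -1.38 in knockout stroma, and the difference was 1.41 ± 0.61 (SE, adjusted p = 0.157, limma). It was a dim gene, well above background on 6 and 8 arrays of these groups and on 4 and 5 of wild-type and knockout tumor, so its low values are bounded by background.

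Irf7, the transcription factor that amplifies interferon production, differed by 1.39 ± 0.62 (SE, adjusted p = 0.162, limma), with 8 of 8 knockout arrays above the wild-type median. Its wild-type values ran from 1.11 to 5.49 and its knockout values from 4.08 to 6.05, so that the ranges overlapped and the knockout range reached above the wild-type range. Ifi35 differed by 0.36 ± 0.16, Rtp4, a receptor-transporting protein with antiviral activity, by 0.95 ± 0.45 and Oasl1 by 1.27 ± 0.62 (SE; adjusted p = 0.166, 0.183 and 0.188, limma). The members that were lower were Isg20 at -0.32 ± 0.29, Adar, which edits adenosine in double-stranded RNA, at -0.12 ± 0.35 and Herc6 at -0.11 ± 0.38 (SE; adjusted p = 0.448, 0.821 and 0.849, limma). The sign of Adar and Herc6 turned in some alternatives, and the other Adar probe gave 0.31. By role, 3 of 3 signalling genes (median 0.79), 4 of 4 sensors (0.87), 9 of 11 RNA-binding and RNA-degrading effectors (0.95), 4 of 4 membrane and nucleotide effectors (0.48), 3 of 4 genes of the Isg15 system (0.29) and 5 of 5 other induced genes (0.87) were higher.

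**Figure D3:**
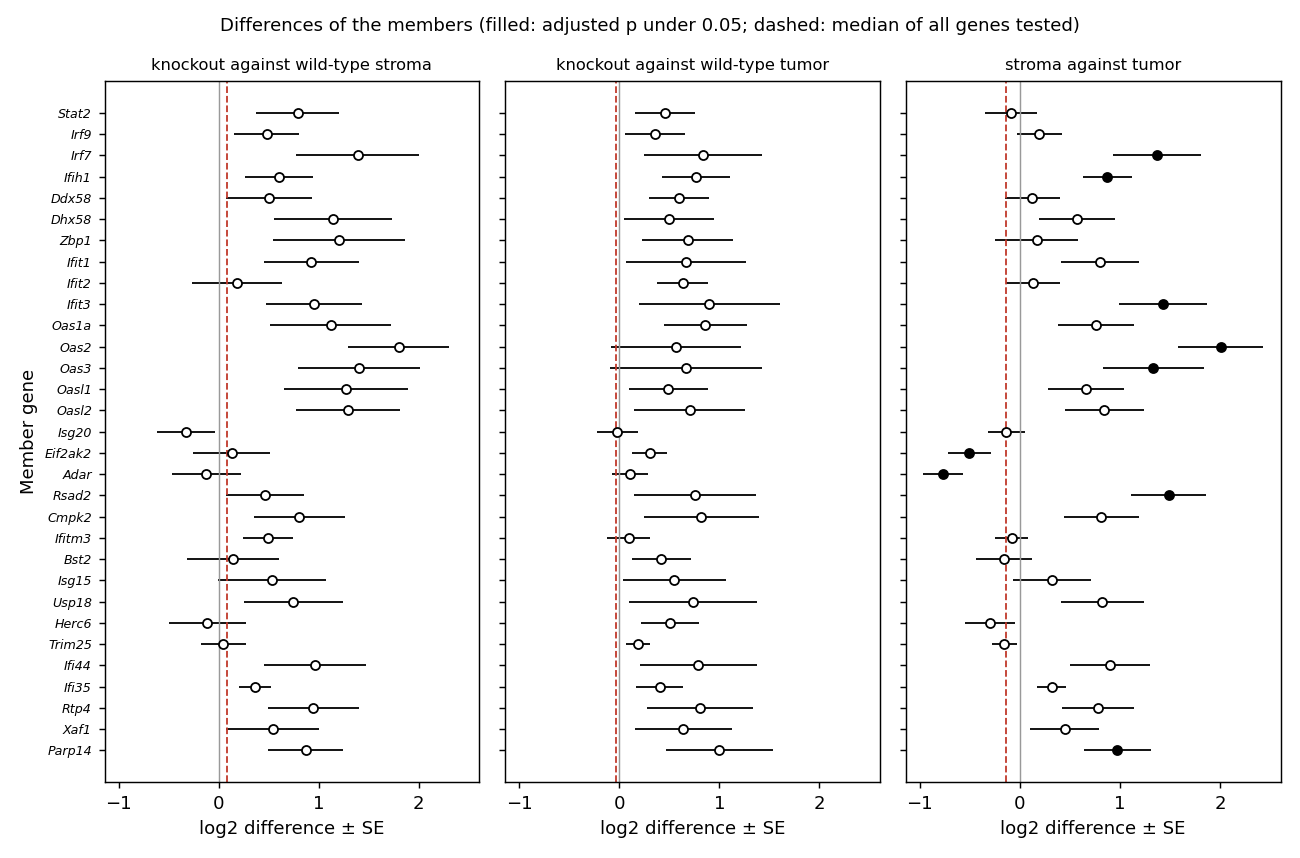
Log2 differences with their SE for the 31 members in the 3 comparisons; filled points passed at an adjusted p under 0.05 and the dashed line is the median of all genes tested (0.09, -0.03 and -0.13). In both genotype comparisons the points lie to the right of the dashed line for most members and none is filled, and between the tissues 7 are filled on the right and 2 on the left.

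The size of the difference in stroma depended on which wild-type arrays were in the fit. Without wild-type stroma 1 the median was 0.46, in female hosts alone 0.40 and under a slide block 1.28. When wild-type stroma 65 and 82 were left out, 0 of 24451 genes passed. Without wild-type stroma 4 there were 5 members that passed (Oas2, Oasl2, Irf7, Parp14 and Ifit3) and without wild-type stroma 9 there was 1 (Oas2), in fits where 4959 and 8412 of all genes passed. Leaving out the 3 stroma arrays with a contradicted sex label, the median was 0.63, 24 of 31 members were higher and none passed, although 5708 of 24015 genes did. With all 32 arrays in 1 fit Oas2 passed, as did 4369 of 27096 genes. With array weights 17 of 31 members passed, as did 16273 of 24772 genes. In both fits the share of members that passed was below that of all genes. Within the 5 slides that held both genotypes the medians were 1.78, -0.29, 2.65, 1.64 and 0.16, with 30, 13, 31, 29 and 22 of 31 members higher, and the highest of these set knockout stroma 12 against wild-type stroma 9. Each of these slides held 1 to 3 knockout and 1 or 2 wild-type arrays. The shares over all genes that were higher in these subsets are not given here, so a shift of whole arrays cannot be told from one of the members.

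Between the tissues most members, but not all, were higher in stroma. Of 31 members 23 were higher in stroma and 8 in tumor, with a median difference of 0.57 against -0.13 over the 27096 genes tested. The share of all genes that were higher in stroma is not given here. Among the 8, Stat2 (-0.09, other probe 0.38) and Ifitm3 (-0.08) had small differences. In limma 7 members passed as higher in stroma, against 26.0% of all genes, and 2 as lower, against 36.8%. Both shares of the members lay below those of all genes. The genes that rose in stroma were Oas2, Rsad2, Ifih1, Ifit3, Irf7, Parp14 and Oas3, and those that fell were Adar and Eif2ak2.

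Oas2 was highest in knockout stroma (mean 3.25 ± 0.54), then in wild-type stroma (1.45 ± 1.56), knockout tumor (0.63 ± 1.57) and wild-type tumor (0.06 ± 1.18; SD, n = 8 each), and neighbouring groups in this order overlapped. It rose by 2.01 ± 0.43 (SE, adjusted p = 0.000201, limma), a fold of 4.02, and 14 of 16 stroma arrays lay above the tumor median. Rsad2, which encodes viperin and makes a chain-terminating nucleotide, ran from -2.30 to 0.92 in wild-type and from -1.71 to 0.79 in knockout stroma. Its tumor values ran from -3.36 to 0.61 in wild-type and from -3.87 to 0.08 in knockout hosts. The wild-type tumor arrays were low apart from wild-type tumor 82, and 15 of 16 stroma arrays lay above the tumor median. The difference was 1.49 ± 0.37 (SE, adjusted p = 0.00113, limma).

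Adar went the other way. It ran from -2.37 through -0.24 to 0.19 in wild-type stroma, from -1.33 through -0.59 to -0.0017 in knockout stroma, from -0.20 through 0.13 to 0.40 in wild-type tumor and from -0.29 through 0.18 to 0.89 in knockout tumor. The wild-type tumor values were close together, wild-type stroma 9 was far below them, and the upper stroma arrays of both genotypes overlapped the tumor values. The difference was -0.77 ± 0.20 (SE, adjusted p = 0.00154, limma), while the other Adar probe gave -0.06 and the mean of its probes -0.42 (adjusted p = 0.109, limma), which ends the call. Eif2ak2, whose kinase halts translation on double-stranded RNA, differed by -0.50 ± 0.22 (SE, adjusted p = 0.0439, limma) and lost its call when any of 18 arrays was left out singly.

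Ifih1 ran from -1.11 to 0.85 in wild-type and from -0.96 to 1.14 in knockout stroma, against -1.56 to -0.70 and -1.54 to 1.12 in the tumors. Wild-type tumor was the low group and knockout tumor reached the stroma values. It rose by 0.87 ± 0.25 (SE, adjusted p = 0.00323, limma). Ifit3 rose by 1.43 ± 0.44, Irf7 by 1.38 ± 0.44, Parp14 by 0.97 ± 0.34 and Oas3 by 1.33 ± 0.50 (SE; adjusted p = 0.00632, 0.00829, 0.0140 and 0.0236, limma). Trim25, a ubiquitin ligase that acts on the RIG-I pathway, was at -0.16 ± 0.13 (SE, adjusted p = 0.287, limma). No member separated the tissues without overlap. Ifit3 has a near-identical neighbour, Ifit3b, that its probe may also read.

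**Figure D4:**
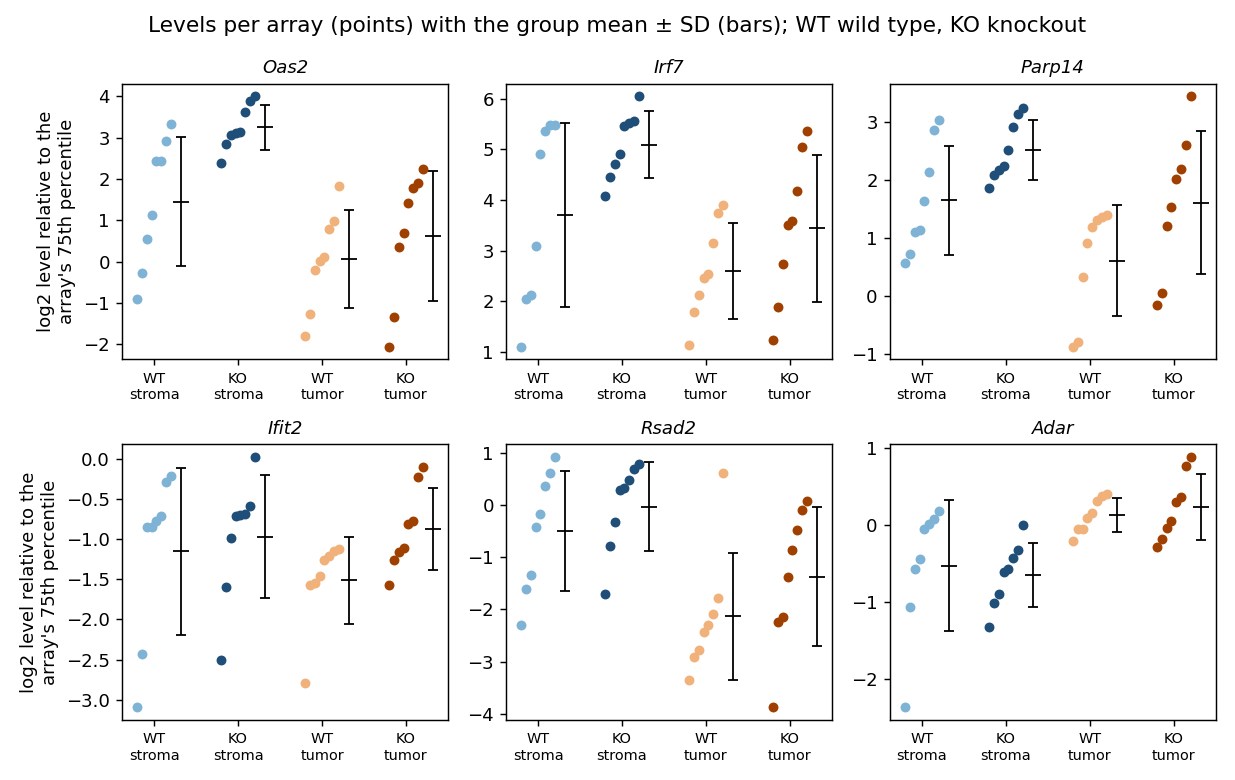
Log2 levels of 6 members on each array relative to the array's 75th percentile, sorted by value within a group, with the group mean and SD beside the points. Oas2, Irf7, Rsad2 and Parp14 are higher in stroma on average and Adar in tumor, the groups overlap for all 6, and the wild-type stroma group is wide for most of them.

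The count that passed between the tissues moved with the arrays used. It was 15 higher and 1 lower without knockout tumor 51 and 81, and left out singly wild-type stroma 1 gave 16, knockout tumor 51 gave 15, wild-type tumor 82 gave 14, wild-type stroma 9 gave 13, and knockout stroma 81, knockout tumor T149 and knockout tumor 81 gave 11 each. Leaving out the 5 arrays with a contradicted sex label, 7 rose and 1 fell, but the genes differed: Oas3 (1.28, adjusted p = 0.0596, limma) and Eif2ak2 (-0.27, adjusted p = 0.208, limma) lost their calls and Oas1a was called. Without wild-type stroma 65 and 82 there were 9 and 2, and without wild-type tumor 5 there were 7 and 1. All genes passing in either direction were 62.5% of those tested without knockout tumor 51 and 81, and 61.3% to 63.7% when arrays were left out singly.

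Whether the genotype difference itself differed between the tissues was tested as an interaction. Of the 31 members 16 had a larger knockout difference in stroma and 15 in tumor, with a median of 0.01 against 0.14 over all genes. None passed in limma (0% of 27096 genes passed) and none had an unadjusted p under 0.05, against 9.53% of genes called higher at that limit. The smallest p was that of Oas2 at 1.23 ± 0.85 (SE, adjusted p = 0.388, limma), followed by Herc6 at -0.62 ± 0.50, Ifitm3, a membrane protein that blocks virus entry, at 0.40 ± 0.33 and Oasl1 at 0.78 ± 0.76. Ifit2 (-0.46 ± 0.54), Isg20 (-0.31 ± 0.36), Dhx58 (0.64 ± 0.77) and Oasl2 (0.58 ± 0.79) had SEs close to or above the size of the differences. These SEs ran from 0.33 to 0.85, and the median over members was 0.53 without knockout tumor 51 and 81 and 0.92 under a slide block.

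The members not yet described by their levels are given here to complete the list, in order of role. Stat2 and Irf9, which act in the complex that binds the response element, kept narrow ranges in wild-type tumor (0.97 to 2.11 for Stat2, 0.92 to 1.997 for Irf9) and reached 3.35 and 3.18 in knockout tumor on array 51. Dhx58 ran from -4.08 to 0.28 in wild-type stroma and from -1.40 to 1.02 in knockout stroma, and Zbp1 from -3.36 to 1.70 and from 0.20 to 2.39. Wild-type stroma 9 was the lowest array for all 4 of these genes, and each of them had overlapping groups in both tissues.

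Among the effectors Ifit1, which binds RNA lacking the host cap modification, ran from -2.34 to 0.98 in wild-type stroma, -0.88 to 1.32 in knockout stroma, -2.38 to 0.72 in wild-type tumor and -2.87 to 1.22 in knockout tumor. Cmpk2, a nucleotide kinase encoded beside Rsad2, was highest on knockout stroma 15 (1.02) and knockout tumor 51 (1.07) within their groups, as Ifit1 was. Bst2 and Ifitm3, the membrane effectors, had knockout differences in stroma of 0.14 ± 0.46 and 0.49 ± 0.25 and in tumor of 0.42 ± 0.29 and 0.09 ± 0.21 (SE). Between stroma and tumor these 2 genes were at -0.16 ± 0.28 and -0.08 ± 0.17, and Rsad2 at 1.49 ± 0.37 (SE), so the membrane and nucleotide effectors did not share a direction.

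In the Isg15 system the modifier Isg15 itself ran from 0.62 to 5.28 in wild-type stroma and from 2.33 to 5.74 in knockout tumor, with a knockout difference of 0.53 ± 0.54 in stroma and 0.55 ± 0.52 in tumor (SE). Usp18, which removes Isg15 and dampens receptor signalling, differed by 0.75 ± 0.50 and 0.74 ± 0.64. Trim25 was even over the groups, with means from 4.17 ± 0.48 to 4.45 ± 0.17 (SD, n = 8 each), and the 8 knockout tumor values were all above the median of the wild-type tumors. Of the other induced genes Ifi44 differed by 0.96 ± 0.51 in stroma and 0.79 ± 0.59 in tumor, Xaf1 by 0.54 ± 0.46 and 0.64 ± 0.48 and Rtp4 in tumor by 0.81 ± 0.53 (SE). For Ifi44 in tumor only 4 of 8 knockout arrays lay above the wild-type median, and its highest value (1.65) was on knockout tumor 51. None of the differences in these paragraphs, apart from that of Rsad2, passed in limma.

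The remaining genes of the pathway were read from lists of ligands, receptor and signalling genes, sensors, negative regulators and other targets. The ligands were close to background. Ifnb1 was well above background on 4 and 3 stroma arrays and 4 and 3 tumor arrays (wild type and knockout), Ifna4 on 0, 0, 0 and 1, and the interferon alpha genes are near-identical copies whose probes may not tell them apart. Ifna1 was above background on 5, 4, 5 and 5 arrays of the groups in the same order, and Ifna5 on 5, 4, 5 and 8, so no difference is given for the ligands.

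In the genotype comparisons as fitted no gene of these lists passed. Only up to 3 genes per list, those of smallest p in stroma, were followed into alternative fits, so no count over whole lists is given for these. In stroma, leaving out the arrays with a contradicted sex label, Trex1 (adjusted p = 0.0265), Ido1 (0.0347), Igtp (0.0398), Jak1 (0.0340) and Tlr9 (0.0257) passed (limma). In that fit 5708 of 24015 genes passed. With all 32 arrays in 1 fit Slfn5 (0.0386), Jak1 (0.0493) and Tlr9 (0.0354) passed (limma), as did 4369 of 27096 genes. With array weights more of these genes passed, Slfn5, Sp100, Irgm1 and Trex1 among them, in a fit where 16273 of 24772 genes passed. Other type I stimulated genes were higher in 23 of 25 tested in knockout stroma (median 0.86), with the growth regulator Slfn5 at 1.67 ± 0.51 and Sp100 at 1.08 ± 0.43, and in 22 of 23 in knockout tumor (0.54), with Nmi at 0.48 ± 0.21 and Phf11b at 1.30 ± 0.57 (SE). Every list count in this paragraph is to be read against all genes tested, of which 55.3% were higher in knockout stroma and 44.0% in knockout tumor. Of the receptor, JAK and STAT genes 4 of 5 were higher in knockout stroma and 3 of 5 in knockout tumor. Of the sensors, adaptors and kinases 9 of 12 and 10 of 12 were higher (median 0.22 and 0.20). Of the negative regulators 5 of 6 were higher in each tissue, with the nuclease Trex1 at 0.52 ± 0.20 in stroma and the signalling inhibitor Socs1 at 0.52 ± 0.23 in tumor (SE). Interferon gamma response genes, which overlap in their promoter elements and targets with type I genes, were higher in 13 of 13 in both tissues (median 1.02 and 1.17), with Irgm1 at 0.80 ± 0.24 in stroma and Ifng itself at 1.90 ± 0.75 in tumor (SE).

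Between stroma and tumor these lists held calls, to be read against the 26.0% of all genes that rose and the 36.8% that fell. Of 25 other type I stimulated genes 9 rose in stroma, led by Slfn5 at 2.93 ± 0.39, the small membrane protein gene Ifi27l2a at 2.86 ± 0.44 and Sp100 at 1.46 ± 0.29. Of 13 interferon gamma response genes 7 rose and 1 fell, with the antigen presentation gene H2-Aa at 1.96 ± 0.49. The endosomal RNA and DNA sensors Tlr7 and Tlr9 rose by 1.48 ± 0.28 and 0.65 ± 0.12, while the cytosolic DNA sensor Cgas fell by 1.498 ± 0.31 and the receptor chain Ifnar2 by 0.81 ± 0.21. Trex1 rose by 0.77 ± 0.13 and Socs1 fell by 1.28 ± 0.34 (SE; every gene named here had an adjusted p under 0.05 in limma).

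Markers of some other cells moved with the members, and those of others did not. In tumor the arrays that were highest for the members, knockout 51 and 81, were also the highest of 16 for the interferon gamma response list (median deviation 2.40 and 1.99), the cytotoxic and NK cell markers (2.53 and 1.51) and the T cell markers (1.51 and 1.89). Across the list, 7 of 8 T cell markers were higher in knockout tumor (median 0.93), with a mean level of -2.59 to -1.44 in wild-type and -2.49 to -0.05 in knockout arrays, and 5 of 7 cytotoxic and NK cell markers were higher (0.98). Macrophage markers were higher in 9 of 10 (0.61), with mean levels of -0.10 to 1.23 and 0.12 to 2.61. Neutrophil markers were lower in 6 of 6 (-1.52), skeletal muscle markers were higher in 10 of 10 (1.81) and cell cycle genes in 8 of 8 (0.33). Fibroblast and matrix markers were higher in 3 of 8 (-0.10) and endothelial markers in 6 of 7 (0.19). Over all genes tested in tumor 44.0% were higher in knockout hosts. Cd3e and Gzmb were well above background on all 16 tumor arrays, but not every marker of their lists was. Cd8a was above background on 3 wild-type and 6 knockout tumor arrays, and Klrb1c on 3 and 7. The part of these cells in the members' difference was not tested.

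**Figure D5:**
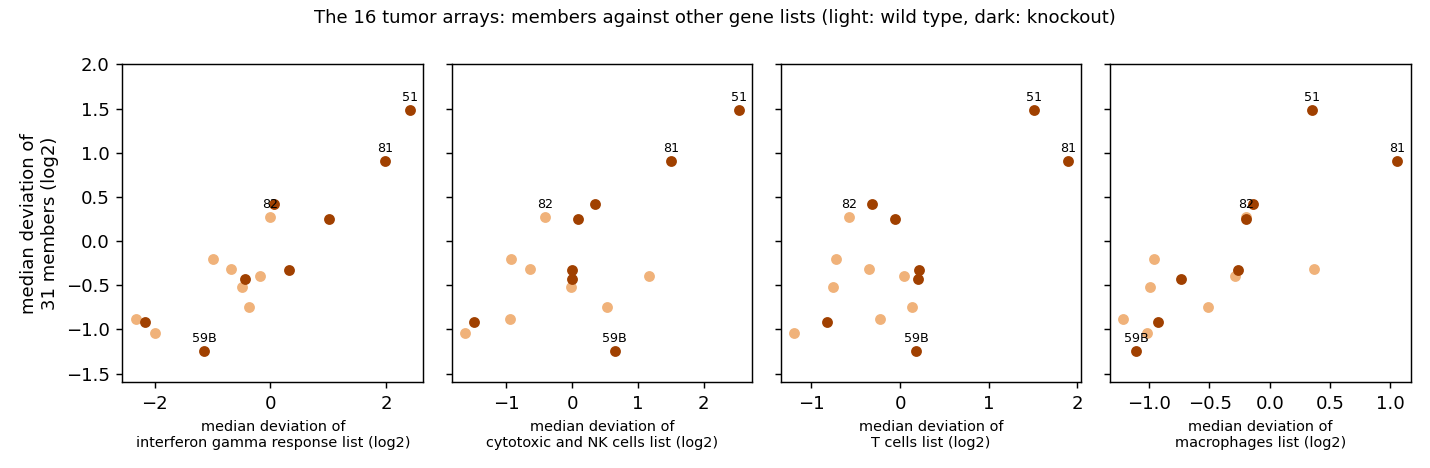
The 16 tumor arrays, with the median deviation (log2, from each gene's median over 32 arrays) of the 31 members on the vertical axis and that of a gene list on the horizontal axis of each panel. Light points are wild-type and dark points knockout hosts. Knockout 51 and 81 lie at the upper right for the interferon gamma, cytotoxic and NK cell and T cell lists, while knockout 59B is low for the members and at 0.65 for the cytotoxic list.

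In stroma, macrophage markers were higher in knockout hosts in 10 of 10 (median 0.86), with mean levels of 0.06 to 3.02 in wild-type and 1.76 to 3.71 in knockout arrays. B and plasma cell markers were higher in 6 of 6 (1.68), T cell markers in 8 of 8 (0.58), skeletal muscle markers in 10 of 10 (1.75) and adipocyte markers in 8 of 8 (1.36), and cell cycle genes were lower in 8 of 8 (-1.43). Neutrophil markers were higher in 3 of 6 (0.0028), cytotoxic and NK cell markers in 5 of 7 (0.65) and conventional dendritic cell markers in 6 of 7 (0.70). Over all genes tested in stroma 55.3% were higher in knockout hosts. No marker passed. Wild-type stroma 9, the lowest array for the members, was also the lowest for T cell markers (-2.91), cytotoxic and NK cell markers (-4.22) and cell cycle genes (-7.66), and the highest for skeletal muscle (4.84). Plasmacytoid dendritic cells, which make much type I interferon, were read from 5 tested markers, 1 of which, Cox6a2, is also a striated muscle gene and differed by 6.15 between stroma and tumor, within the range of the muscle markers (5.37 to 7.88). Of the 5, 4 were higher in knockout stroma (median 0.70, mean levels -0.36 to 1.90 in wild-type and 1.47 to 2.41 in knockout arrays). Their marker Siglech was well above background on all arrays and differed by 0.11 ± 0.16 (SE), and Ccr9 was above background on 4 and 6 arrays. Between the tissues 10 of 10 muscle markers (median 6.58), 8 of 8 endothelial markers (1.41) and 8 of 10 macrophage markers (1.58) rose in stroma and 8 of 8 cell cycle genes fell (-2.51). The part of these cells in the members' differences was not tested.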

How the data were processed

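Total RNA, labelled with Cy3, was hybridised to 32 one-colour Agilent arrays in 4 groups of 8. Per the submitters' processing notes, spots were read by Agilent Feature Extraction 10.7.3.1. The deposited processed signal is a linear-scale intensity, per the file headers. The series matrix deposited by the authors holds log2 values, scaled per array and centred per probe within a tissue, as checked against the scanner values, and served as an alternative within a tissue. Here outlier spots were left out, replicate spots averaged, log2 taken and the array's 75th percentile over non-control spots subtracted. Of 56605 probes 32994 matched a RefSeq symbol (GRCm38.p6). Tested were genes above background on 8 or more arrays of a fit and missing on at most 2, with limma 3.58.1 (lmFit, eBayes; statmod 1.5.0, R 4.3.3), with a mean per genotype and sex label, and p-values were Benjamini-Hochberg adjusted over all genes tested. The fit was tested on simulated data.

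The members, lists and tests were chosen with earlier results of these data known. Named with tests, by rule, were the 8 members of smallest p in a comparison, up to 3 opposing the majority and up to 3 genes per pathway list. Alternatives were another background correction or scaling, filters, probe rule, slide or replicate blocks, array weights, variance models, each sex alone and left-out arrays. The correction was run on the median spot signal, a choice made after seeing the data. Arrays lay on 6 slides and were scanned on 2 days, over which the genotypes were not spread evenly. Figures used Python 3.11.15 with matplotlib 3.10.9.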

Additional observations from a re-analysis of the deposited data

Results flagged for a closer look

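Of 128 sets of 8 arrays examined (31 members and their median deviation in 4 groups) 3 held an array far from the other 7, where chance alone marks about 1 in 20, and all 3 were in wild-type tumor. Ifit2 was at -2.79 on wild-type tumor 9, with the next array at -1.58, and this low value is part of the genotype difference given above for Ifit2. Dhx58 was at -2.9997 on wild-type tumor 65, with the next at -1.86. Rsad2 was at 0.61 on wild-type tumor 82, with the next at -1.78, and the median deviation of all members on that array was 0.27, the highest of its group. No member's genotype difference passed a test of differing between the tissues, apart from Oas2 with array weights. In that fit 13254 of 27096 genes passed, a larger share than the 1 of 31 members.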

How the results depend on the processing

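The direction of the members' median held in every alternative for stroma (0.40 in female hosts to 1.28 with slide as a fixed block), tumor (0.18 without knockout tumor 51 and 81 to 0.86 without knockout tumor 59B) and stroma against tumor (0.40 without wild-type stroma 4 to 0.81 without knockout tumor 51 and 81). No member passed in tumor under any alternative, and the same held in stroma apart from 17 with array weights, 1 with all arrays in 1 fit and 0 to 5 when arrays were left out singly, with medians of 0.46 to 1.02. Of all genes 16273 of 24772 passed in stroma with array weights and 4369 of 27096 with all arrays in 1 fit. The number that rose in stroma against tumor was 11 with normexp and with quantile scaling, 12 with the 75th percentile of bright probes, 15 with array weights and 15 without knockout tumor 51 and 81, and 7 to 16 when arrays were left out singly. In either direction 16736 to 18858 of 27096 genes passed in the scaling and weighting fits. Without knockout tumor 51 and 81 it was 16895 of 27013. The number that fell was 1 (Adar lost its call with the mean of all probes, Eif2ak2 elsewhere) with the bright-probe percentile, no filter, the mean of all probes, array weights, and without knockout tumor 51 and 81 or the arrays with a contradicted sex label, and 1 to 2 when arrays were left out singly. The interaction median was 0.92 with slide as a fixed block, -0.02 under quantile scaling, -0.13 when arrays with a contradicted sex label were left out and -0.18 to 0.35 when arrays were left out singly. With array weights 1 member (Oas2) passed the interaction test, as did 13254 of 27096 genes. The cause of these changes was not tested.

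The replicate number is shared by 15 stroma and tumor pairs. Over all genes above background, their deviations from the group means correlated at -0.05 to 0.34 (median 0.14, 9 over 0.1, 5 best with their own number within the genotype). This does not settle whether arrays with the same number came from the same animal. The main fit did not pair them. With the replicate block as a random effect 12 members rose and 2 fell between the tissues, with a fixed replicate block 8 rose and 1 fell, and the interaction median was 0.03. Knockout and wild-type groups share no numbers, so no block was fitted there.

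Some signs turned. In stroma Adar was 0.094 with the mean of all probes, 0.15 with slide as a fixed block and 0.19 without wild-type stroma 65 and 82, and Herc6 was 0.082 and 0.077 under the last 2 of these. In tumor Eif2ak2 was -0.00068 in male hosts, Isg20 was 0.018 with the series matrix, 0.019 with slide as a fixed block, 0.32 in female hosts and 0.065 without arrays of contradicted sex label, Ifnar1 was 0.032 without knockout tumor 51 and 81, and Ifnar2 was -0.0076 with the mean of all probes, -0.20 in male hosts and -0.046 without knockout tumor 51 and 81. The interaction of Ifit2 was 0.22 with slide as a fixed block. With arrays left out singly Adar ran from -0.42 to 0.0028, Herc6 from -0.33 to 0.12, Isg20 from -0.16 to 0.074 and Ifnar2 from -0.017 to 0.14. Among the members, Oas3 and Herc6 were not above background on every array.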
